A study of Mus musculus with 2 samples.

Results

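Neutrophils that carried transcripts of platelets were examined in 2 single-cell libraries of mouse blood. A cell was taken as a neutrophil when it had at least 1000 UMIs (unique molecular identifiers, 1 for each captured RNA molecule), at most 10% of them mitochondrial, at least 5% from the neutrophil genes S100a8 and S100a9, fewer than 20 per 10000 from the granule genes Camp, Ngp and Ltf, and fewer than 15 per 10000 from the interferon-induced genes Ifit1, Ifit2, Ifit3, Ifit3b and Rsad2. It was called platelet-positive when Ppbp and Pf4 together gave at least 4 UMIs, and platelet-zero when they gave 0. In the WT library 1195 of 6873 such neutrophils were positive, 2949 were zero and 2729 lay between. In the APP/PS1 library 1435 of 6927 were positive, 2879 were zero and 2613 lay between. The 2630 positive cells were taken from 34768 cells in all.

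The WT library was made from blood neutrophils of 3 pooled female C57BL/6J mice and the APP/PS1 library from 3 pooled female APP/PS1 mice, which carry mutant human amyloid precursor protein and presenilin transgenes. All mice were 7 months old and no treatment was given to either genotype. Blood was drawn into EDTA by cardiac puncture, red cells were lysed with ammonium chloride, and neutrophils were enriched with a negative selection kit before 10x Genomics 3′ libraries were made. With 1 pooled library for each genotype there is no replicate, no test was made and no p-value is given, and genotype and library cannot be told apart. The WT library held 17123 cells and 92458623 UMIs, and the APP/PS1 library 17645 cells and 84870864 UMIs. The libraries shared 83 cell barcodes, of which 3 belonged to positive WT cells and 9 to positive APP/PS1 cells.

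Platelets are fragments of megakaryocytes that have no nucleus and keep a store of megakaryocyte mRNA. They bind to circulating leukocytes, and on neutrophils P-selectin of the platelet meets PSGL-1 (Selplg), while platelet GPIbα meets the integrin Mac-1 (Itgam with Itgb2). Ppbp and Pf4 encode the chemokines CXCL7 and PF4 of the alpha granule, the store that platelets empty when they are activated.

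Ppbp and Pf4 defined the cells, so their levels are a description and not a finding. They are neighbours on chromosome 5 of mm10, Ppbp from 90768518 to 90770063 and Pf4 from 90772435 to 90773383 (GENCODE M21). The RefSeq promoters of both genes and of 2 platelet receptor genes that were not used to choose the cells are shown because their transcripts moved together. Each runs from 250 bases before to 50 bases after the annotated start on GRCm38.p6 and is written 5′ to 3′ on the strand of the gene. Ppbp is at chr5:90768268-90768567 (+), Pf4 at chr5:90772185-90772484 (+), Itga2b at chr11:102469834-102470133 (-) and Gp9 at chr6:87777820-87778119 (+). Capitals mark the GATA motif AGATAA and the ETS motif AGGAAG on either strand (TTATCT and CTTCCT on the other).
Ppbp: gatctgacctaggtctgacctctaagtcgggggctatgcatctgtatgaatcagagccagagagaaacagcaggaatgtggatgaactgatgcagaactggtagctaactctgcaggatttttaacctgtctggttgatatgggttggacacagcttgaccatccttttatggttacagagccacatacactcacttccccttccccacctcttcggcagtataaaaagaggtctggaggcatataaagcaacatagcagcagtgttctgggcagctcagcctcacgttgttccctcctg
Pf4: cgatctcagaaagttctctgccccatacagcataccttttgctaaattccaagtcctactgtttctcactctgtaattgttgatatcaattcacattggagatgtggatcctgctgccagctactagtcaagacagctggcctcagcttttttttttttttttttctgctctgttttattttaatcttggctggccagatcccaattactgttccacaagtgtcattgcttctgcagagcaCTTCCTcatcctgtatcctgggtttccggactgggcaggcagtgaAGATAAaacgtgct
Itga2b: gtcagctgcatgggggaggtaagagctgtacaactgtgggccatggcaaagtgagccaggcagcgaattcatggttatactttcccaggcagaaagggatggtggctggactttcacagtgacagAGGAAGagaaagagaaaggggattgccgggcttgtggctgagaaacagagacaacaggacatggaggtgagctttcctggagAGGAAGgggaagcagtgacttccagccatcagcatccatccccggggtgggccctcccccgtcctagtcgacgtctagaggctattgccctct
Gp9: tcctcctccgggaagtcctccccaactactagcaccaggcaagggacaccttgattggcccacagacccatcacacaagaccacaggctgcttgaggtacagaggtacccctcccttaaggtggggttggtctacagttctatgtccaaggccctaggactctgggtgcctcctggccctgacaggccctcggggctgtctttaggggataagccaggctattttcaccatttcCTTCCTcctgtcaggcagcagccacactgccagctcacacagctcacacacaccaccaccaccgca
The Pf4 promoter held 1 match of each motif, Itga2b held 2 ETS matches, Gp9 held 1, and Ppbp held neither. Of 32851 RefSeq promoters of this length, 11.2% held the GATA motif and 35.4% the ETS motif. Of the 72 promoters found for Ppbp, Pf4 and the 92 genes described below as at least 2-fold higher in both libraries, 6.94% held the GATA motif and 34.7% the ETS motif.

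Of the WT neutrophils 17.4% were positive, with an interval from 16.5% to 18.3%. In APP/PS1 mice 20.7% were, with an interval from 19.8% to 21.7%. The APP/PS1 share was higher by 3.33 percentage points (2.02 to 4.64). Here and below, intervals are at the 95% level and cover counting error only, not the spread between mice. Intervals of levels and ratios treat UMIs as independent, so they leave out the spread between cells too. Ppbp and Pf4 UMIs per neutrophil had a mean of 2.13 and a variance of 22.7 in WT, and 2.40 and 24.2 in APP/PS1. The number of Ppbp and Pf4 UMIs per neutrophil fell off with no gap at the limit. In WT 478 cells had 3 UMIs and 322 had 4, and in APP/PS1 493 cells had 3 and 315 had 4. At least 1 UMI was found in 57.1% of WT and 58.4% of APP/PS1 neutrophils. Positive cells held 69.2% of the Ppbp and Pf4 UMIs of all WT neutrophils and 73.6% of those of APP/PS1. Their median was 6 UMIs in both libraries, and the highest cell had 188 in WT and 120 in APP/PS1.

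**Figure D1:**
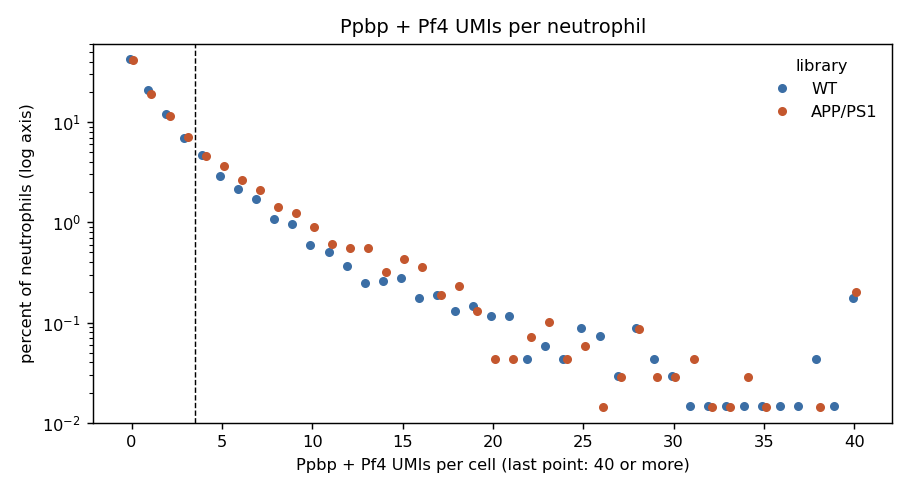
Ppbp and Pf4 UMIs per neutrophil (x axis) against the percent of the library's neutrophils on a log axis, for WT (blue) and APP/PS1 (orange), with the last point for 40 UMIs or more. The dashed line is the limit of 4 UMIs, and both libraries fall across it without a break, from 6.95% of WT cells with 3 UMIs to 4.69% with 4.

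Other blood cells carried these transcripts as well. Cells were taken as B cells, T cells, NK cells or monocytes when they were low in S100a8 and S100a9 and had at least 3 marker genes of their own type (2 for T cells) and fewer than 2 of each other type. At least 1 UMI of Ppbp or Pf4 was found in 37.6% of WT and 20.3% of APP/PS1 B cells, at median depths of 3524 and 4957.5 UMIs. The same share was 38.5% and 38% in T cells, 26.1% and 24.9% in NK cells and 55.7% and 54.4% in monocytes, all below the neutrophils of their library. With at least 4 UMIs required, 19.7% of 5069 WT monocytes and 20.7% of 3722 APP/PS1 monocytes were positive, at median depths of 6309 and 6378 UMIs against 2727 and 2887 in neutrophils. To compare cells of unlike depth, every cell was thinned to 1000 UMIs and counted when at least 2 of Ppbp and Pf4 remained. After thinning 12.3% of neutrophils were counted in WT (11.5% to 13.05%) and 14.5% were in APP/PS1 mice (13.6% to 15.3%). Monocytes had 5.96% (5.32% to 6.65%) and 7.09% (6.29% to 7.97%), less than neutrophils of the same library by more than counting error. B cells, which make neither transcript, had 2.89% in WT (0.945% to 6.62%, 173 cells) and 2.54% in APP/PS1 (0.939% to 5.45%, 236 cells). NK cells had 0.840% of 119 cells and 2.11% of 285 cells, and T cells, with 122 and 100 cells, had 6.56% and 7%. Neutrophils thus stood above B and NK cells in both libraries, while the intervals of T cells (from 2.87% to 12.5% for WT and from 2.86% to 13.9% for APP/PS1) overlapped those of neutrophils in both libraries.

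The positive cells were larger than the zero cells. Their median was 3354 UMIs against 2581 in WT, and 3413 against 2683 in APP/PS1. A fixed number of UMIs is reached more readily in a deep cell, so this difference is in part built into the rule. In WT 279 positive cells (23.3%) had over 10000 UMIs, against 1.90% of zero cells, and they held 70.4% of all UMIs of the positive cells. In APP/PS1 200 positive cells (13.9%) passed 10000 UMIs, against 1.39% of zero cells, and they held 52.0% of the UMIs. At least 3 UMIs from the marker list of 1 other type (B cell, T cell, NK cell, monocyte or basophil) were seen in 42.0% of positive and 21.4% of zero cells in WT, and in 33.4% and 18.8% in APP/PS1. No doublet caller was run, and the part that doublets of a neutrophil with another leukocyte had in these cells was not tested.

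The monocyte list moved with the positive cells as a whole. All 10 of its genes were higher in both libraries by a ratio of at least 5 to 4 with intervals clear of 1, as were 21.0% of all genes tested. Its summed level was 1878 CPM (UMIs of the gene per 1000000 UMIs of the cell group) against 872 CPM in WT and 1417 against 651 CPM in APP/PS1, with Ly6c2 the most abundant gene. Ccr2, the chemokine receptor of classical monocytes, had 186 CPM in positive and 43.4 CPM in zero cells of WT, and 140 and 26.6 CPM in APP/PS1. Fn1, which encodes fibronectin, had a log2 ratio of 2.36 in WT and 2.28 in APP/PS1. For this reason comparisons are also given for restricted cells, a choice made after these values had been seen. Restricted cells lay within the 5th to 95th percentile of UMIs and of genes of their library, as in the quality control of the study, and had fewer than 3 UMIs from each of the 5 marker lists. This left 690 of 1195 positive and 2311 of 2949 zero cells in WT, and 954 of 1435 positive and 2337 of 2879 zero cells in APP/PS1. Positive cells were then 13.9% of WT (12.9% to 14.9%) and 18.1% of APP/PS1 restricted neutrophils (17.0% to 19.1%). The monocyte list then summed to 275 CPM in positive and 284 CPM in zero cells of WT, and to 229 and 263 CPM in those of APP/PS1, with 0 of its 4 testable genes higher and 1, Treml4, lower by the looser rule given below. Since cells with monocyte markers were left out by this choice, the fall of the list follows from it.

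UMIs were summed over the positive and over the zero cells of each library and compared as CPM for genes with at least 100 UMIs over both groups in each library. A gene was counted as at least 2-fold higher or lower when both libraries showed it. Of 7057 genes, 336 were at least 2-fold higher in positive cells (4.76% of the genes tested) and 10 at least 2-fold lower (0.142%). The median log2 ratio over all genes was 0.19 in WT and 0.14 in APP/PS1, so ratios in all positive cells are to be read against that shift. In restricted cells 4837 genes could be compared, the medians were -0.03 and -0.05, 92 genes were at least 2-fold higher (1.9%) and 0 at least 2-fold lower. A looser rule asked for a ratio of at least 5 to 4 in both libraries with both intervals clear of 1. By it 1485 genes were higher (21.0%) and 43 lower (0.609%) in all positive cells, and 196 were higher (4.05%) and 7 lower (0.145%) in restricted cells.

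Platelet genes were among the genes higher in positive cells. Of 100 genes in 6 platelet lists, besides Ppbp and Pf4, 72 had enough UMIs in all cells, and 39 of these were at least 2-fold higher and none lower. Their median log2 ratio was 1.52 in WT and 1.81 in APP/PS1. Some of these genes reached the minimum of UMIs only through the positive cells, which favours a difference. Of the 45 that had 100 UMIs in the zero cells alone in both libraries, 14 were at least 2-fold higher and 27 were higher by either rule. Of all genes tested 4.76% were at least 2-fold higher and 21.0% higher by the looser rule given above. The share among all genes with 100 UMIs in zero cells alone is not given, here or below. Of the 28 below the minimum, 20 had the higher CPM in the positive cells of both libraries, while Igf1 and Sparc had no UMI in positive cells of either. Over all genes tested the lower quartile of the log2 ratio was 0.01 in WT and -0.02 in APP/PS1. Most genes thus had the higher CPM in positive cells, and the count of 20 says little about platelet genes. In restricted cells 58 of the 100 could be compared, 32 were at least 2-fold higher, 41 were higher by the looser rule and none was lower, with a median log2 ratio of 1.44 in both libraries. Of the 40 that had 100 UMIs in the restricted zero cells alone, 14 were at least 2-fold higher and 23 were higher by either rule. Of all genes tested in restricted cells 1.9% were at least 2-fold higher and 4.05% higher by the looser rule.

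In the list of alpha-granule cargo, 7 of the 10 testable genes were at least 2-fold higher in restricted cells, where 1.9% of all genes were. Vwf, Mmrn1, Ecm1 and F13a1 reached the minimum only through the positive cells, and of the 6 genes with 100 UMIs in the restricted zero cells alone 3 were at least 2-fold higher (Nrgn, Clu and F5). Its most abundant member, Nrgn, is a cytosolic protein and not granule cargo. Nrgn, which encodes neurogranin, a calmodulin-binding protein abundant in platelet RNA, is encoded on chromosome 9 between 37544492 and 37552904. Its level was 1087 CPM in positive and 154 CPM in zero cells of WT, and 1333 and 181 CPM in APP/PS1, log2 ratios of 2.82 (2.71 to 2.93) and 2.88 (2.79 to 2.98). Vwf, the von Willebrand factor that tethers platelets to damaged vessels, had 82.8 against 6.36 CPM in WT and 97.2 against 8.59 CPM in APP/PS1. Clu (clusterin), Mmrn1 (multimerin, the carrier of factor V) and Ecm1 had log2 ratios between 2.91 and 3.34. F5 (coagulation factor V) and F13a1 (the A chain of factor XIII) had smaller ratios, at 1.34 and 1.34 for F5 and 1.53 and 1.54 for F13a1. F13a1 is also made by monocytes, and over all positive cells its ratio was 2.32 in WT and 2.73 in APP/PS1. Selp, which encodes P-selectin, did not pass either rule. It had 21.9 CPM in positive and 18.7 CPM in zero cells of WT and 25.4 and 16.6 CPM in APP/PS1, a log2 ratio of 0.22 (-0.30 to 0.72) and 0.62 (0.19 to 1.04).

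Of 11 testable adhesion receptors 10 were at least 2-fold higher in restricted cells, where 1.9% of all genes were, with Cd9 next to the limit. Some, such as Gp5, Gp1bb and Treml1, were testable only through the positive cells. Of the 6 with 100 UMIs in the restricted zero cells alone, 5 were at least 2-fold higher. Itga2b, the alpha chain of the fibrinogen receptor, lies on chromosome 11 from 102453297 to 102470122. Its level in WT was 227 CPM (208 to 248) in positive and 17.6 CPM (14.4 to 21.3) in zero cells, a log2 ratio of 3.69 (3.39 to 4.01). In APP/PS1 it was 283 CPM (265 to 301) and 21.1 CPM (17.7 to 24.95), a log2 ratio of 3.74 (3.48 to 4.02). The intervals of positive and zero cells lay far apart in both libraries. Itgb3, its partner chain, had log2 ratios of 3.09 and 2.96. The subunits of the von Willebrand factor receptor were raised as well, Gp9 by 2.88 and 3.03, Gp1bb by 3.90 and 3.72 and Gp5 by 4.57 and 3.44 on the log2 scale. Clec1b (CLEC-2, the podoplanin receptor) had log2 ratios of 3.87 and 3.69, and Treml1, a receptor kept in alpha granules, 3.69 and 3.51. The collagen-binding and laminin-binding integrin chains Itgb1 and Itga6 were also at least 2-fold higher, at 2.13 and 2.42 for Itgb1 and 3.68 and 3.19 for Itga6. Cd9, a tetraspanin that zero cells also carried (822 CPM for WT, 892 CPM for APP/PS1), had log2 ratios of 0.99 and 1.05.

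Signalling, cytoskeletal and lipid genes varied widely in their ratios. Of 11 testable signalling genes 5 were at least 2-fold higher in restricted cells, where 1.9% of all genes were. Gng11, a G protein gamma chain, had log2 ratios of 2.66 and 2.63, Rgs10, a brake on G protein signals, 3.30 and 3.48, and P2ry12, the ADP receptor blocked by clopidogrel, 1.83 and 1.56. Rap1b, the small GTPase that switches on platelet integrins and is present in most leukocytes, had 803 CPM in positive and 747 CPM in zero cells of WT and 773 and 698 CPM in APP/PS1, and passed neither rule. Of 15 cytoskeletal genes 8 were at least 2-fold higher, again against 1.9% of all genes. Of the 9 with 100 UMIs in the restricted zero cells alone only Myl9 and Fermt3 were at least 2-fold higher. Among those that reached the minimum only through the positive cells were Cald1 (caldesmon) at 4.05 and 3.98 and Parvb (parvin beta) at 4.10 and 3.58. Actn1 and Zyx, which neutrophils also make, passed neither rule, with log2 ratios of -0.01 and 0.14 for Actn1 and 0.19 and 0.24 for Zyx. Alox12, the platelet lipoxygenase, lies on chromosome 11 from 70241457 to 70255353 and had 161 against 9.78 CPM in WT and 197 against 12.3 CPM in APP/PS1. Its log2 ratios were 4.04 and 3.99, but with 60 and 79 UMIs in restricted zero cells it reached the minimum only through the positive cells. Of the 3 lipid genes with 100 UMIs in the restricted zero cells alone 0 were at least 2-fold higher, and Alox5ap, the partner of the neutrophil lipoxygenase, had -0.03 and -0.04.

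None of the 6 testable megakaryocyte transcription factors was higher by either rule in restricted cells, where 4.05% of all genes were higher by the looser rule. Over all positive cells 2 of 7 were, Mef2c at 0.65 and 0.84 and Lyl1 at 0.65 and 0.45, a share near the 21.0% of all genes. The 5 below the minimum of UMIs all had the higher CPM in positive cells of both libraries, among them Tal1 with log2 ratios of 1.57 (0.81 to 2.39) and 1.60 (0.88 to 2.38). Most genes tested were higher over all positive cells, with lower quartiles of the log2 ratio of 0.01 and -0.02. The count of 5 therefore says little about these factors. Among restricted cells Nfe2, which drives platelet release, had 176 CPM in positive and 172 CPM in zero cells of WT, and 144 and 127 CPM in APP/PS1. Fli1 had log2 ratios of 0.24 and 0.07 in these restricted cells. Gata1, the main regulator of the lineage, was also below the minimum. It gave 19 UMIs in all positive and 1 in all zero cells of WT, and 17 and 1 in APP/PS1. In restricted cells Runx1 had a log2 ratio of 0.40 (0.13 to 0.67) in WT but 0.00 in APP/PS1, and Mef2c 0.34 and 0.68, so neither met the rule in both libraries.

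**Figure D2:**
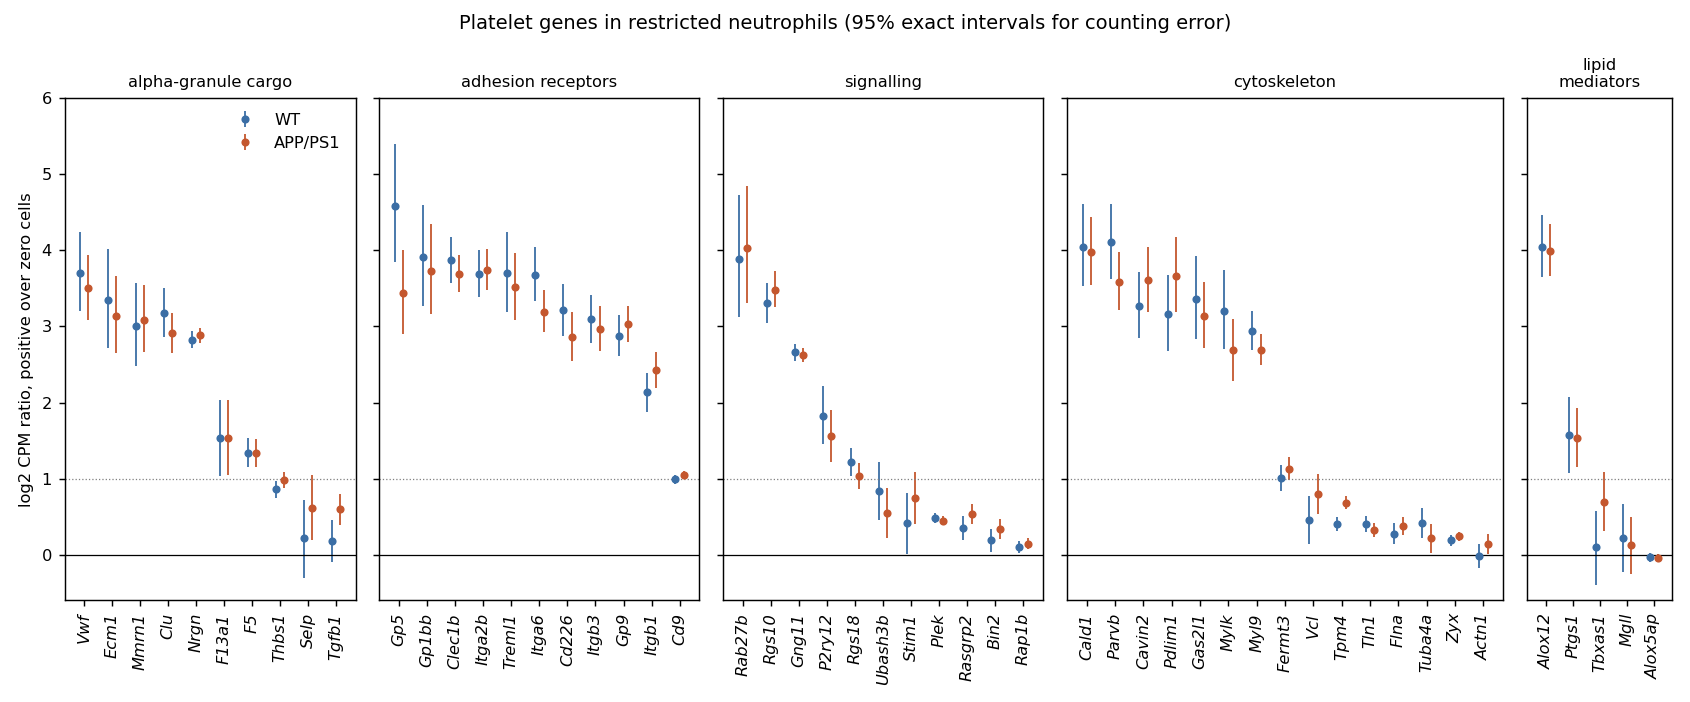
Log2 ratio of CPM in restricted positive over restricted zero cells (y axis) for each testable gene of 5 platelet lists, WT in blue and APP/PS1 in orange. Points are ratios and bars 95% exact intervals for counting error, and the dotted line marks 2-fold. Adhesion receptors lie between 2.13 and 4.57 but for Cd9, while genes that neutrophils share, such as Zyx and Alox5ap, lie near 0.

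Genes outside the lists moved with them. Of the 92 genes at least 2-fold higher in restricted cells, 60 were in no platelet list. Tsc22d1, which encodes a leucine zipper protein, had 398 against 43.4 CPM in WT and 460 against 57.0 CPM in APP/PS1, log2 ratios of 3.20 and 3.01. Fhl1, a LIM domain protein, had 3.86 and 3.42, and Lgalsl, a galectin-like protein, 3.87 and 3.57. Over all positive cells the 20 highest genes outside the lists were led by Tpm2 (tropomyosin 2) at 4.09 and 3.87, Slc6a4, the serotonin transporter through which platelets load their serotonin, at 3.77 and 3.14, and Mrvi1, a target of cGMP-dependent protein kinase in platelets, at 3.31 and 2.99. The same group held Gucy1b1, a chain of the nitric oxide receptor, at 2.63 and 2.74, and Pde5a, which breaks down its product cGMP, at 2.52 and 2.93. Pde5a, Gucy1b1 and Slc6a4 were rare transcripts, between 10.0 and 21.8 CPM in positive cells. These genes were picked for their ratio, and Tpm2, Slc6a4, Mrvi1, Gucy1b1, Pde5a, Fhl1 and Lgalsl, with 6 to 50 UMIs in the zero cells of a library, reached the minimum only through the positive cells. Of the 60 genes outside the lists, 26 had 100 UMIs in the restricted zero cells alone.

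The level of platelet genes followed the number of Ppbp and Pf4 UMIs. In restricted cells of WT, Nrgn had 154 CPM at 0 UMIs, 378 CPM at 1 to 3, 844 CPM at 4 to 7, 1417 CPM at 8 to 15 and 2579 CPM at 16 or more. In APP/PS1 the steps were 181, 507, 1029, 1743 and 2561 CPM. Cells with 1 to 3 UMIs, which were in neither group of the main comparison, thus lay between zero and positive cells in both libraries. After the mean of zero cells was subtracted, there were 39.5 Nrgn UMIs per 100 Ppbp and Pf4 UMIs in WT cells with 1 to 3 UMIs, 42.9 at 4 to 7, 39.9 at 8 to 15 and 41.6 at 16 or more. In APP/PS1 these values were 61.0, 59.0, 54.1 and 48.4. Pf4 took up 69.0% of the Ppbp and Pf4 UMIs at 1 to 3 UMIs and 68.0% at 16 or more in WT, and 69.0% and 70.1% in APP/PS1. Genes differed in how far they kept such proportions. From 1 to 3 UMIs to 16 or more, Itga2b went from 8.26 to 13.9 per 100 in WT and from 10.2 to 10.9 in APP/PS1, and Clec1b from 7.35 to 12.02 and from 10.7 to 19.5. Gng11 went from 40.5 to 38.4 in WT and from 58.2 to 48.2 in APP/PS1. The cells with 16 or more numbered 39 in WT and 55 in APP/PS1.

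In CPM, the neutrophil genes Csf3r, Il1b, Cxcr2 and Retnlg were not higher in cells with 16 or more Ppbp and Pf4 UMIs than in cells with 0. Csf3r, the receptor for the granulocyte growth factor G-CSF, had 2356 CPM at 0 UMIs and 2319 CPM at 16 or more in WT, and 2388 and 2037 CPM in APP/PS1. Il1b, the inflammatory cytokine interleukin 1β, had 14883 and 13672 CPM in WT and 15083 and 12182 CPM in APP/PS1. Both were lowest in CPM in the cells with the most Ppbp and Pf4 UMIs. Retnlg went from 13857 to 7553 CPM in WT but from 12277 to 12114 CPM in APP/PS1, and Cxcr2 from 1400 to 1056 CPM and from 1465 to 1234 CPM. These levels are shares of a cell's UMIs, which platelet transcripts also occupy. In UMIs per cell, Csf3r went from 6.25 to 8.67 in WT and from 6.54 to 8.71 in APP/PS1. Il1b went from 39.5 to 51.1 and from 41.3 to 52.1, and Cxcr2 from 3.72 to 3.95 and from 4.01 to 5.27. Retnlg went from 36.8 to 28.2 in WT but from 33.6 to 51.8 in APP/PS1.

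**Figure D3:**
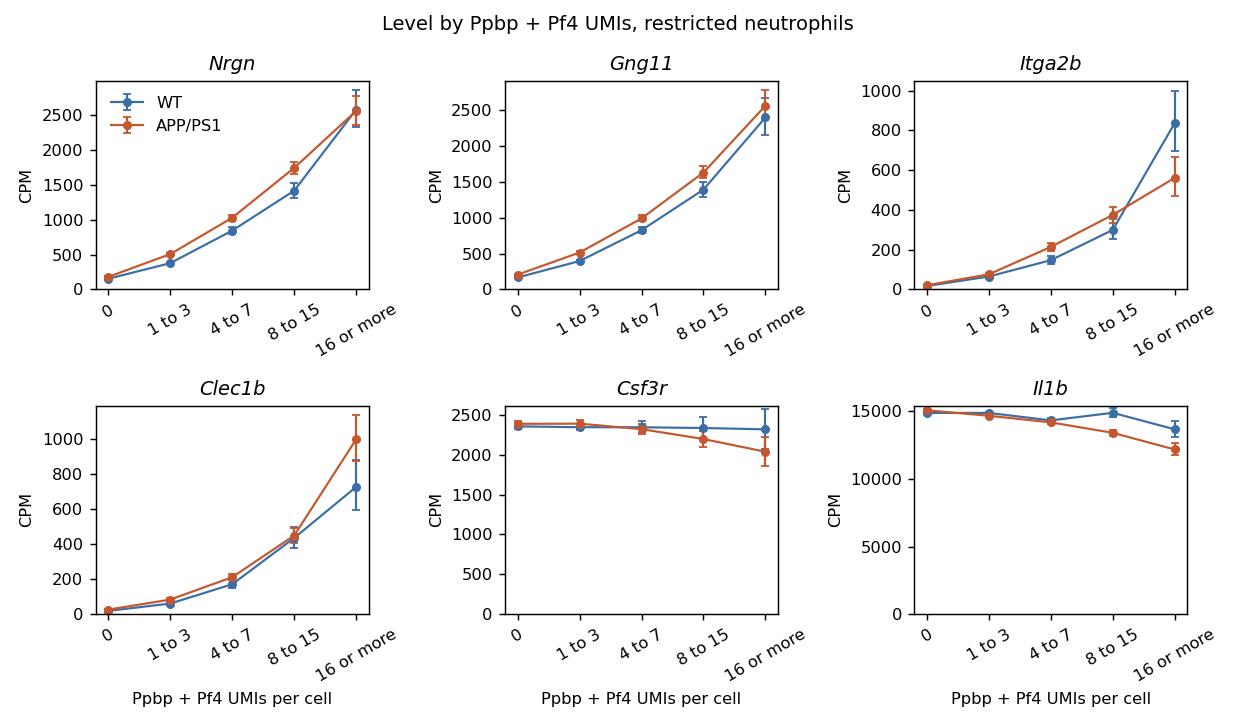
CPM (y axes, from 0) of 4 platelet genes and of the neutrophil genes Csf3r and Il1b in restricted neutrophils grouped by Ppbp and Pf4 UMIs per cell (x axes), for WT (blue) and APP/PS1 (orange), with 95% exact Poisson intervals. Nrgn climbs from 154 to 2579 CPM in WT, whereas Csf3r stays between 2037 and 2390 CPM in both libraries.

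Most single positive cells carried other platelet transcripts, not Ppbp and Pf4 alone. At least 1 of 18 adhesion receptor genes (the list without Cd9) was seen in 86.8% of restricted positive cells of WT (84.1% to 89.2%) and 93.9% of those of APP/PS1 (92.2% to 95.4%). The share was 30.4% and 32.7% in zero cells and 56.3% and 63.8% in cells with 1 to 3 UMIs. At least 3 of these genes were seen in 56.5% and 69.4% of positive cells, against 1.99% and 3.17% of zero cells. Positive cells were deeper, with medians of 2824 against 2480 UMIs in restricted WT cells and 3062 against 2587 UMIs in APP/PS1, and a deeper cell gives more chance to detect a gene. Over all neutrophils thinned to 1000 UMIs, 84.4% of positive and 58.8% of zero cells of WT had at least 1 gene of the whole list, Cd9 included, and 89.6% and 63.9% in APP/PS1.

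Mitochondrial transcripts were higher in positive cells, within the limit of 10% of a cell's UMIs that the rule set on them. All 12 of 12 testable genes passed the looser rule over all positive cells, where 21.0% of all genes did, with medians of 0.82 and 0.87. In restricted cells 8 of the 10 testable mitochondrially encoded genes passed it, against 4.05% of all genes, with a median log2 ratio of 0.55 in WT and 0.58 in APP/PS1. The list as a whole had 4410 against 3046 CPM in WT and 3770 against 2431 CPM in APP/PS1. mt-Nd5, a subunit of respiratory complex I, had the highest ratios, 0.98 and 1.10, and mt-Cytb, of complex III, had 0.70 and 0.80. None of the genes of the list reached 2-fold in both libraries.

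The neutrophil lists were compared in the same way. Over all positive cells the neutrophil identity list was lower, at 141326 against 187071 CPM in WT and 138196 against 169989 CPM in APP/PS1, with Retnlg (resistin-like gamma) and S100a9 lower by the looser rule. The sum is dominated by S100a8 and S100a9, on which the rule sets a lower limit. In restricted cells none of its 15 genes was called in either direction, where 4.05% of all genes were higher and 0.145% lower, so that the count says nothing particular about these genes, and the summed log2 ratio was -0.11 (WT) and -0.06 (APP/PS1). Cxcr2, the receptor through which CXCL7 attracts neutrophils, had 1278 CPM in positive and 1400 CPM in zero cells of WT and 1399 and 1465 CPM in APP/PS1.

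Genes of neutrophil activation were also close to even in restricted cells, where 4.05% of all genes were higher and 0.145% lower by the looser rule, so that lists of this size hold few calls or none. Of 21 testable immediate early genes, which are induced within minutes of a stimulus, none was called in restricted cells, and the median log2 ratio was -0.10 in WT and -0.12 in APP/PS1. Egr1 had log2 ratios of -0.06 and -0.08 and Fos -0.05 and -0.09. Of 25 genes of the inflammatory response only Plek was higher, at 0.48 and 0.45, and Plek (pleckstrin) is abundant in platelets and stands in the platelet signalling list too. Il1b had -0.05 and -0.12, Ptgs2, the inducible cyclooxygenase, -0.12 and -0.12, and Tnf -0.40 and -0.39 without passing the looser rule. Of 9 genes of NETosis (the release of chromatin traps) and the oxidative burst, none was called. In the interferon list 1 of 23 genes, Ifit3b, was higher, and Ifit3b is 1 of the genes on which the rule set a limit. Over all positive cells 13 of 27 interferon genes were higher by the looser rule, 3 of them at least 2-fold, where 21.0% of all genes were higher. The 13 included Ifit1, Ifit2, Ifit3, Ifit3b and Rsad2, on which the rule set a limit, and Ifit2 was among the 3. The count is thus not independent of the rule. Bst2 (tetherin), also at least 2-fold higher, had log2 ratios of 1.52 and 1.67 over all positive cells and 0.30 and 0.13 in restricted cells.

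The counter-receptors through which neutrophils hold platelets passed neither rule. Selplg (PSGL-1) had 764 CPM in positive and 779 CPM in zero cells of WT and 757 and 810 CPM in APP/PS1. Itgam had 452 against 473 CPM in WT and 427 against 461 CPM in APP/PS1, and its partner Itgb2 423 against 435 CPM and 459 against 457 CPM. Of the 11 testable genes of this list 0 were called, as is usual for a list of this size at the shares of all genes given above. No gene was called in the study's lists of maturation (0 of 49 genes) and chemotaxis (0 of 29 genes), with medians between -0.05 and -0.08 in restricted cells. Of all genes there 4.05% were higher and 0.145% lower by the looser rule. These counts rest on summed UMIs and do not speak to smaller changes.

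**Figure D4:**
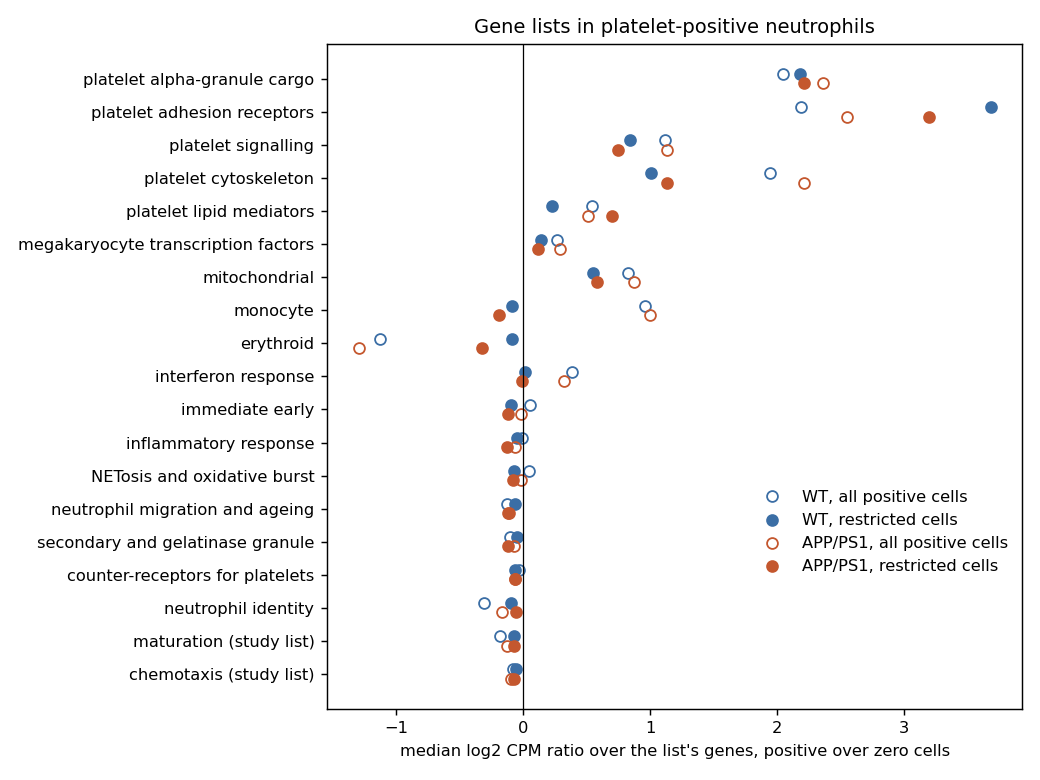
Median log2 CPM ratio of positive over zero cells (x axis) over the testable genes of each list (y axis), WT in blue and APP/PS1 in orange, open circles for all positive cells and filled circles for restricted cells. The monocyte list lies at 0.959 and 0.998 with all cells (10 testable genes) and at -0.09 and -0.19 with restricted cells (4 genes). The adhesion receptors lie at 2.19 and 2.55 with all cells (16 genes) and at 3.68 and 3.19 with restricted cells (11 genes). The 2 medians of a list thus cover different sets of genes.

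Few genes were lower in positive cells. Over all cells the 10 lowest were haemoglobin genes and genes of lymphocytes. Of these, 7 turned direction in at least 1 library under another setting, and 0 stayed past 2-fold in both libraries under all settings. For Prf1, Klrd1, Nkg7, Il2rb and Gimap4 the ratios in restricted cells rest on few UMIs, as given below. Hbb-bs, the adult beta globin, had 2609 CPM in positive and 6143 CPM in zero cells of WT and 1812 and 4477 CPM in APP/PS1. These transcripts were concentrated in few cells, since the 10 cells richest in Hbb-bs held 69.3% of its UMIs among the positive cells of WT and 86.7% in APP/PS1. Gzma, a granzyme of NK and T cells, had 40.8 against 172 CPM and 63.2 against 157 CPM. In restricted cells Treml4, Crispld2, Aspscr1, Zfp654, Rgs1, Chmp3 and Aplp2 passed the looser rule as lower and are named because so few did, with log2 ratios between -0.33 and -0.77. Treml4 belongs to the monocyte list, on which the choice of restricted cells sets a limit, so its value is not independent of that choice.

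The platelet transcripts of restricted positive cells were also set side by side between the libraries. Per Ppbp and Pf4 UMI, 47 of the 92 genes at least 2-fold higher in positive cells were higher in the APP/PS1 library with an interval clear of 1 and 0 were lower, with a median log2 ratio of 0.24. Among the 32 of them in platelet lists 21 were higher, with a median of 0.31. Nrgn was higher by 0.39 on the log2 scale, Clec1b by 0.41, Itga2b by 0.41 and Gng11 by 0.36. Itgb3 (0.01), F5 (-0.12) and Cd226 (-0.15) did not differ beyond counting error. All these ratios share 1 denominator, made of the genes that chose the cells, and are not independent of each other. On the same scale 19.2% of all 4837 genes were higher and 5.54% lower, with a median of 0.11. Scaled to CPM instead, 30 of the 92 were higher and 3 lower, with a median of 0.149, and of the 32 platelet-list genes 11 were higher and 3 lower. In CPM the median over all 4837 genes was 0.02, and the share of all genes called by this interval is not given. For the 92 genes the median was 0.24 per Pf4 UMI and 0.25 per Ppbp UMI. Over all positive cells, the large ones included, the median was -0.01, with 28 of the 92 genes higher and 29 lower. The share of all genes is not given for these cells, so the 2 counts have no such share to be read against.

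**Figure D5:**
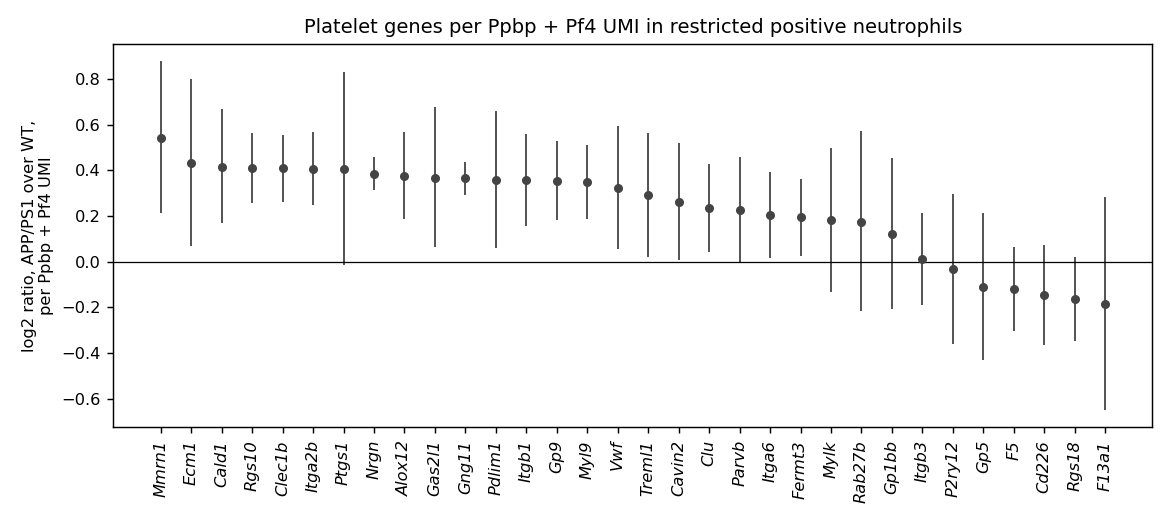
Log2 ratio of APP/PS1 over WT (y axis) of UMIs per Ppbp and Pf4 UMI in restricted positive neutrophils, for the 32 platelet-list genes at least 2-fold higher in positive cells of both libraries, with 95% exact conditional intervals. Of these, 21 lie above 0 with their whole interval, and the values run from 0.54 for Mmrn1 to -0.19 for F13a1.

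Between the libraries, the count of genes 2-fold apart in positive cells depended on how cells were taken. Of 7057 genes, 18 were at least 2-fold higher in APP/PS1 (0.255%) and 26 lower (0.368%), against 15 (0.213%) and 41 (0.581%) in zero cells. The 26 lower genes became 119 within the percentile limits and 58 as a mean over cells. By the looser rule within positive cells, 385 were higher (5.46%) and 926 lower (13.1%). Both comparisons set the same pair of libraries side by side, and neither has a replicate. Among the highest were Ly6a (log2 ratio 2.75) and Gsto1 (2.18), but 1 cell held 87.8% of the Ly6a UMIs of the APP/PS1 positive cells, and 1 cell held 86.2% of the Gsto1 UMIs. Cd3d, a T cell receptor chain, was higher by 2.53 in positive and by 2.21 in zero cells. Cd14, the lipopolysaccharide co-receptor, had log2 ratios of -1.50 in positive and -1.51 in zero cells, where positive cells of WT had 848 CPM and those of APP/PS1 had 299 CPM. Tgm2 (transglutaminase 2) had -1.25 and -1.21.

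In restricted cells 12 of 21 immediate early genes were higher in APP/PS1 positive cells by a ratio of at least 5 to 4 with an interval clear of 1, and 1 was lower. Of all genes tested there, 6.33% were higher and 5.73% lower. In zero cells 13 of the 21 were higher and 0 lower, where 7.28% of all genes were higher and 6.18% lower. The positive and zero cells shared 11 of these higher genes. Egr1 was higher by 0.70 in positive and 0.72 in zero cells on the log2 scale, and Zfp36, which encodes the mRNA-destabilising protein tristetraprolin, by 0.73 and 0.76. In the interferon list 6 of 23 genes were higher in positive cells and 7 in zero cells. Globin genes were lower in both groups, with a median log2 ratio of -1.09 over the erythroid list in positive and -0.93 in zero cells. Of the 58 testable platelet-list genes 3 were higher and 2 lower in CPM in positive cells, and 7 were higher and 2 lower in zero cells.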

How the data were processed

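Blood neutrophils were profiled in 2 samples, 1 library from WT and 1 from APP/PS1 mice. The authors deposited unnormalized UMI counts per gene and cell for 32285 features, made with Cell Ranger 5.0.0 on mm10 according to the submitters' processing notes. Cells were chosen by the limits given above, UMIs were summed over the positive and over the zero cells of each library, and sums were scaled to CPM. Genes needed at least 100 UMIs over both cell groups in each library. Shares have Clopper-Pearson intervals, their difference a Newcombe interval, levels exact Poisson intervals and ratios exact conditional intervals, all at 95%. Total counts were 92458623 UMIs in WT and 84870864 UMIs in APP/PS1. Doublets were not called. No gene was tested, because each genotype had 1 library. The calculations used Python 3.11.15, numpy 2.4.6, scipy 1.17.1 and pandas 2.3.3. They were checked on simulated independent Poisson counts, which hold no spread between cells. The check therefore does not show how the intervals behave where few cells hold most UMIs of a gene.

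The members and gene lists were chosen with earlier results of these data known. Named genes were those of the platelet lists that met the minimum, the 20 highest and 10 lowest of the others, the 5 highest and 5 lowest of each other list, and the 10 highest and 10 lowest between genotypes. Other genes, among them those known for a role in neutrophils and the genes with few UMIs, were named after their values had been seen. Alternatives varied the minimum of Ppbp and Pf4 UMIs, the limits on cells, the library size, the weighting of cells and the gene filter. Promoters came from RefSeq on GRCm38.p6.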

Additional observations from a re-analysis of the deposited data

Results flagged for a closer look

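Fth1, the heavy chain of the iron store ferritin, moved in opposite directions in the 2 libraries, with a log2 ratio of positive over zero cells of -0.0986 in WT and 0.0249 in APP/PS1. The summed immediate early list did so as well, at 0.0182 in WT and -0.0327 in APP/PS1 over all positive cells. With 1 library for each genotype the difference was not tested for either, and each ratio lay close to 0.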

How the results depend on the processing

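No paired analysis was possible because each genotype had 1 library, and for the same reason no replicate could be left out. The settings for restricted cells and for counts per Ppbp and Pf4 UMI were chosen after seeing the data. The APP/PS1 share of positive neutrophils stayed above the WT share under each setting tried. The shares in WT and APP/PS1 were 36.3% and 39.3% with a minimum of 2 UMIs, 5.99% and 7.81% with 8 (a difference of 1.82 points), 18.5% and 22.0% in cells of at least 2000 UMIs, 15.2% and 19.1% within the percentile limits, 13.9% and 18.1% without cells with markers of other types, 13.9% and 18.1% with both, and 12.3% and 14.5% after thinning. The count of genes at least 2-fold higher moved from 336 to 153 with the minimum as a rate, 138 within the percentile limits, 116 with zero cells weighted by depth, 93 without cells with other markers, 92 in restricted cells, 644 with a gene filter of 30 UMIs and 139 with 300. The count lower moved from 10 to 2 with a minimum of 2 UMIs, 28 and 6 with filters of 30 and 300, and 0 within the percentile limits, as a mean over cells, without cells with other markers and in restricted cells. Of the platelet lists 25 genes were at least 2-fold higher with a filter of 300. All 59 raised genes followed across settings kept one sign and 56 stayed past 2-fold, while of 10 lowered genes 3 kept one sign in both libraries and 0 stayed past 2-fold. The raised genes were chosen for their high ratios in these same cells. Some reached the minimum of UMIs only through the positive cells. That they stayed raised is thus in part built into the choice.

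The neutrophil identity list stayed below 0 throughout, in WT and APP/PS1 at -0.31 and -0.22 with a minimum of 2 UMIs, -0.57 and -0.40 with 8, -0.19 and -0.14 as a rate, -0.43 and -0.31 in cells of at least 2000 UMIs, -0.24 and -0.10 within the percentile limits, -0.40 and -0.29 without platelet genes in the library size, -0.46 and -0.34 without S100a8, S100a9 and mitochondrial genes in it, -0.21 and -0.14 as a mean over cells, -0.15 and -0.10 weighted by depth, -0.105 and -0.0572 without cells with other markers, and -0.105 and -0.0562 in restricted cells. The ratio of median UMIs was 1.30 and 1.27, and became 1.17 and 1.18 with a minimum of 2, 2.06 and 1.501 with 8, 1.03 and 1.07 as a rate, 1.18 and 1.21 within the percentile limits, 1.14 and 1.18 without cells with other markers, and 1.14 and 1.18 in restricted cells. Between genotypes, genes at least 2-fold higher in positive cells numbered 69 with a filter of 30 and 7 with 300, and genes lower 92 and 7, 119 within the percentile limits and 58 as a mean over cells. Per Ppbp and Pf4 UMI, all positive cells gave a median of -0.0103 with 28 genes higher and 29 lower, a minimum of 8 gave 21 higher and 3 lower, and cells with 1 to 3 UMIs gave 1 lower. No share of all genes is given for these settings.

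Several lists and genes turned direction. Without cells with other markers and in restricted cells, the monocyte list was at -0.0571 and -0.0439 in WT and -0.197 and -0.197 in APP/PS1, and the higher of the log2 ratios in the 2 libraries was 0.36 and 0.37 for Prf1, 0.0606 and 0.0631 for Klrd1, 0.35 and 0.35 for Nkg7, 0.76 and 0.78 for Il2rb, and 0.94 and 0.94 for Gimap4. As a mean over cells and on the same measure, Il2rb was at 0.0985, Hbb-bt at 0.0263, Hba-a1 at 0.0327 and the T cell list in WT at 0.0256, and within the percentile limits that list was at 0.39. In restricted cells the ratios of Prf1, Klrd1, Nkg7, Il2rb and Gimap4 rest on few UMIs. In WT these cells held 10.9%, 6.98%, 2.92%, 6.82% and 2.44% of the 46, 43, 171, 44 and 41 UMIs of positive cells. In APP/PS1 they held 11.3%, 9.23%, 16.1%, 6.06% and 17.9% of 71, 65, 161, 33 and 39. The fall of the monocyte list follows from leaving out cells with its markers. Cells with at least 3 UMIs of the NK cell list, which holds Prf1, were left out too. The cause of the other changes was not tested. Genes under 100 UMIs were left out by the filter and not by depth alone, since Gp1ba, with 63 against 5 UMIs in WT and 105 against 11 in APP/PS1, had log2 ratios of 3.43 (2.13 to 5.10) and 3.12 (2.22 to 4.17).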

Other observations

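The basophil list was low in every group of cells. In APP/PS1 1 cell held 80.3% of the Mcpt8 UMIs of the positive cells, Mcpt8 being a protease of basophil granules. Over all positive cells of APP/PS1 the basophil list summed to 45.2 CPM against 3.40 CPM in zero cells, and in WT to 11.92 against 11.98 CPM. In restricted cells, from which cells with at least 3 UMIs of the list were left out, it summed to 6.97 against 0.978 CPM in WT, a log2 ratio of 2.83 (1.39 to 4.49), and to 4.49 against 0.781 CPM in APP/PS1, a log2 ratio of 2.52 (0.99 to 4.34). None of its 7 genes reached the minimum of UMIs. Of the Mcpt8, Cpa3 and Ms4a2 UMIs of all positive cells, restricted cells held 6.25%, 0% and 5.26% in WT and 1.27%, 0% and 0% in APP/PS1. The most abundant gene of the list over all positive cells was Gata2 in WT and Prss34 in APP/PS1. Whether the ratio in restricted cells came from basophil transcripts was not tested.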
